A study of Rattus norvegicus with 7 samples.

Results

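The genes described here copy the DNA of a dividing cell and supply its nucleotides. A list of 51 such genes was taken, and a probe set was assigned to a gene where the array annotation gave it that symbol alone. By this rule 46 of the 51 genes had a probe set, 63 probe sets in all out of 20832 with 1 symbol and 31099 on the array. Cdc6, the kinase genes Cdc7 and Dbf4, Gins2 and Rrm2 had none, and the 2 probe sets that carry the symbol of Rrm2 are shared with Rrm2l1 and were not used. ROE2 is an immortalized oral epithelial line from the tongue of an 18-day-old fetus of a Wistar strain transgenic rat, and all 7 samples carry the temperature-sensitive SV40 large T-antigen. Cells were given sodium fluoride (NaF) at 0 mM (vehicle, sterilized water) or 2 mM in medium with low serum. By the paper's methods, the line was kept at its permissive temperature and was treated at an intermediate one. Vehicle was sampled at 0, 3, 6 and 12 h and 2 mM NaF at 3, 6 and 12 h, where the 0 h sample is the vehicle control that carries no incubation time in its label. A condition was measured once, on 1 array, from RNA of 3 independent experiments combined.

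Replication starts at origins. The origin recognition complex (ORC) with Cdc6 and Cdt1 loads the Mcm2-7 ring on DNA before S phase, geminin (Gmnn) keeps Cdt1 from loading it again, and Cdc45 and the GINS complex turn the ring into a running helicase. DNA polymerases then copy the strands with the help of the clamp Pcna and its loader RFC, chromatin assembly factor 1 rebuilds nucleosomes, and ribonucleotide reductase and thymidylate enzymes supply deoxynucleotides. Many of these genes are known as targets of E2F transcription factors, which the retinoblastoma proteins hold back, and large T-antigen is known to bind the retinoblastoma proteins, which limits this line as a model of normal S-phase control.

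Signals were deposited on the log2 scale for each probe set, with array medians of 5.32 to 5.35. Of 16 epithelial markers with a probe set, 14 were above the signal limit, against 1 of 7 leukocyte, 1 of 5 endothelial, 2 of 9 mesenchymal and 1 of 7 muscle markers. The medians of these 4 lists were between 3.43 and 5.58 on the vehicle arrays and between 3.40 and 5.41 on the NaF arrays. The gap between the 3' and 5' beta-actin controls, a sign of RNA integrity, was 1.53 to 2.83 on the vehicle arrays and 1.77 to 2.39 on the NaF arrays, and the 2 groups overlapped. The 5S rRNA control was 4.90 to 5.46 on the vehicle arrays and 5.67 to 6.65 on the NaF arrays without overlap, and its part in the results below was not tested. In pooled bulk RNA, fewer cells in S phase and less RNA per cell cannot be told apart.

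Changes are given as the NaF array minus the vehicle array of the same time on the log2 scale, unless they are named as the fitted change. The fitted change is the NaF array minus the mean of the 4 vehicle arrays, and limma tested it against the spread among those 4, so its p-values do not cover the spread between separate NaF experiments. A probe set was tested where its mean log2 signal over the 7 arrays was at least 7, which left 10707 probe sets, 55 of them for 45 of the listed genes. Each gene is given at its brightest tested probe set. A gene is said to rise or fall where its adjusted p was under 0.05.

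More replication genes fell at 12 h than at 6 h, and the median changes at 12 h were lowest for nucleotide supply, the helicase and chromatin assembly. At 12 h of NaF, 31 of 45 genes fell and 5 rose, whereas 31.7% of all tested probe sets were called lower and 28.9% higher. At 6 h, 21 of 45 fell and 5 rose, beside 22.2% lower and 16.7% higher of all tested probe sets. At 3 h, 3 of 45 fell, which is 6.67% of the genes beside 6.29% of all tested probe sets, a share close to the background. None rose at 3 h by limma, with 3 at an unadjusted p under 0.05 and 2.76% of all tested probe sets called higher. The median change of the 45 genes was -0.08 at 3 h, -0.23 at 6 h and -0.48 at 12 h, while that of all tested probe sets was -0.03, 0.00 and 0.00. Of the 31 genes that fell at 12 h, 19 had fallen at 6 h and 12 had not been called then. When the 6 h or the 12 h vehicle array was dropped, 0 genes were called lower at 3 h, and 13 or 14 at 6 h. Markers of the cells themselves moved at 12 h too. Of 14 tested epithelial markers 9 were called lower and 0 higher (0 also at an unadjusted p under 0.05 by limma), with a median change of -0.35, and the desmosomal gene Dsg2 (-1.18) and Tp63 (-1.01), a transcription factor of basal epithelium, changed most. Summed over the 16 markers, the linear signal was 68186 to 69702 on the vehicle arrays and 58052 to 69133 on the NaF arrays, lowest at 12 h. Of the 2 tested mesenchymal markers, Vim, which encodes vimentin, changed by -1.17 and was called lower, and Fn1 changed by -0.03 without a call. The leukocyte marker Cd14 (-0.62) and the endothelial marker Egfl7 (-0.25) were called lower, and the muscle marker Myh1 (0.64) was called higher. The part of these marker changes in the fall of the replication genes was not tested.

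**Figure D1:**
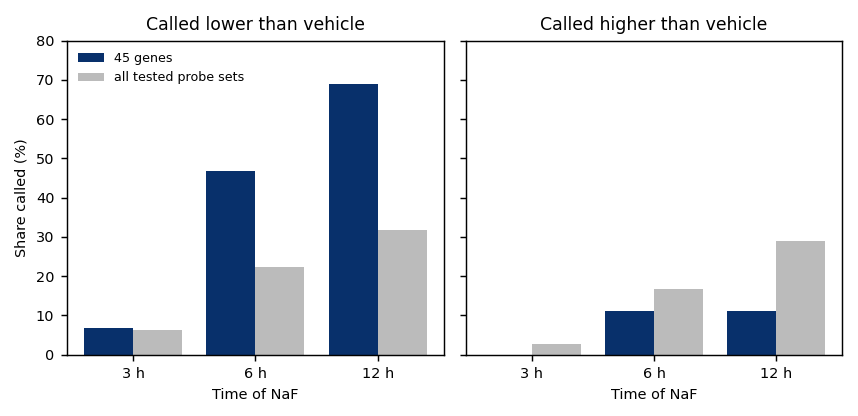
Share (%) of the 45 tested replication and nucleotide genes (dark bars) and of all 10707 tested probe sets (grey bars) called lower (left) or higher (right) than vehicle by limma at 3, 6 and 12 h of NaF. The dark bars for lower calls reach 6.67%, 46.7% and 68.9%, while those for higher calls stay at or below 11.1%.

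Changes past 2-fold were seen at 12 h alone. At that time 9 of the 45 genes were at least 2-fold lower than vehicle of the same time and 1 was at least 2-fold higher, beside 4.82% and 4.42% of all tested probe sets. By the fitted change, Rfc3 (-0.92), Lig1 (-0.92) and Tk1 (-0.95) of the 9 were less than 2-fold lower, and Uhrf1 (-1.04), not among the 9, was past 2-fold. At 3 and 6 h no gene of the list reached 2-fold, whereas 0.738% and 2.74% of all tested probe sets were that much lower and 0.355% and 1.77% higher. The NaF array lay below all 4 vehicle arrays for 18 of 45 genes at 3 h, 27 at 6 h and 35 at 12 h, beside 31.9%, 38.3% and 42.8% of all tested probe sets. The 12 h NaF array lay above all of them for 6 genes (41% of all tested probe sets). All 3 NaF arrays lay below all 4 vehicle arrays for 16 genes (15.2% of all tested probe sets), 8 of them helicase genes. Signals stepped down from 3 through 6 to 12 h of NaF for 27 genes, against 24.2% of all tested probe sets.

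**Figure D2:**
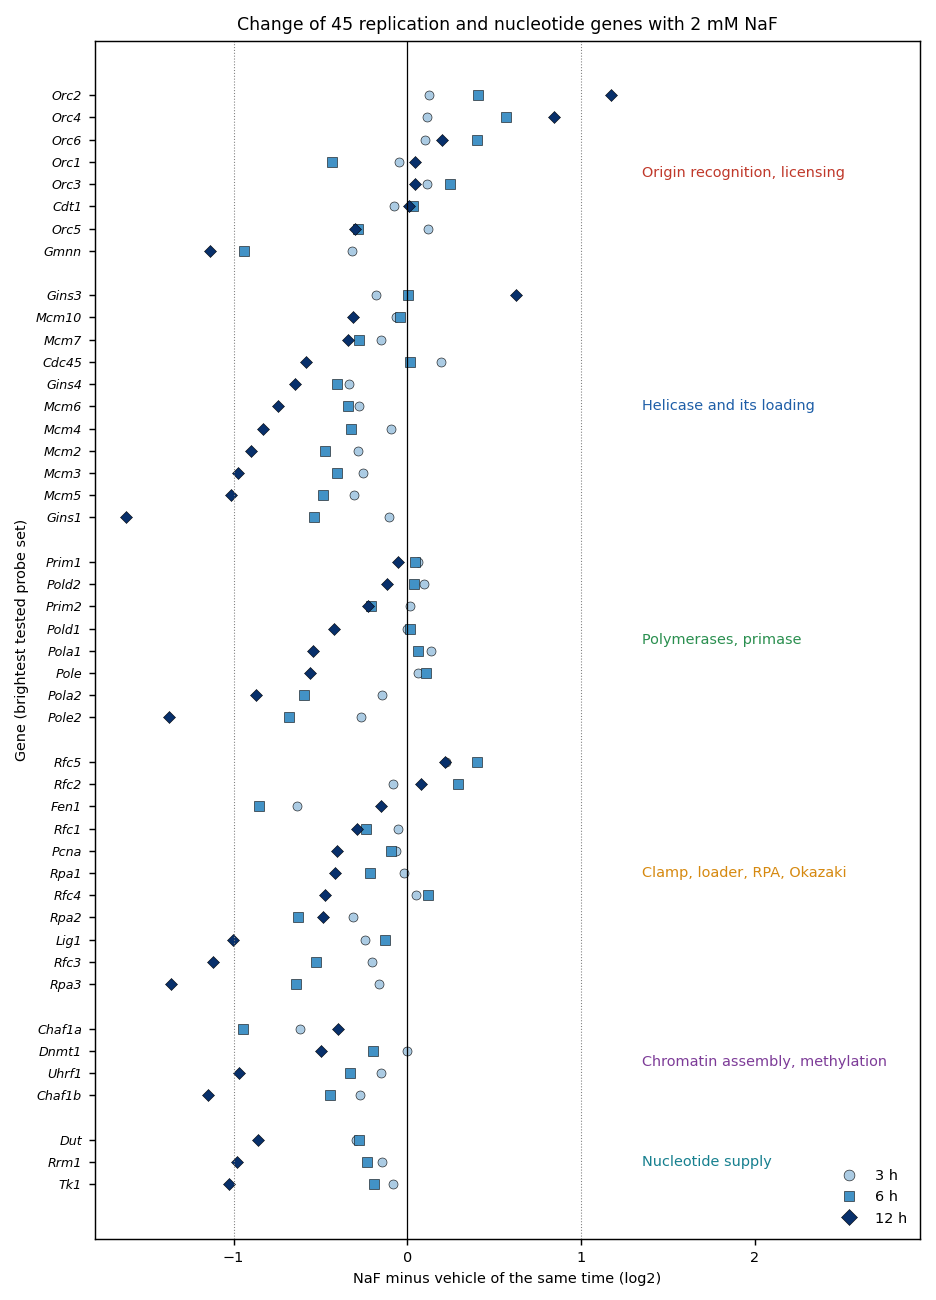
Log2 change of each of the 45 tested genes, NaF minus vehicle of the same time, at 3 h (circles), 6 h (squares) and 12 h (diamonds), grouped by role and sorted by the 12 h change. Dotted lines mark 2-fold. Nearly all diamonds of the helicase, chromatin and nucleotide groups lie left of 0, and Orc2, Orc4 and Gins3 stand apart on the right.

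Origin recognition and licensing genes held calls in both directions. Of 8 tested genes, 3 rose and 2 fell at 12 h, counts near the 28.9% and 31.7% of all tested probe sets, and their median change was 0.04. Orc2, a subunit of the origin recognition complex, had log2 signals of 8.48, 8.61, 8.50 and 8.51 in vehicle at 0, 3, 6 and 12 h and of 8.73, 8.91 and 9.68 in NaF at 3, 6 and 12 h. All 3 NaF signals of Orc2 were above the vehicle signals, and it was the 1 gene of the list that was 2-fold higher, at 2.26-fold at 12 h. Against the mean of vehicle, its fitted change was 1.16 at 12 h (limma adjusted p = 0.00019, standard error 0.07), after 0.38 at 6 h (limma adjusted p = 0.0093).

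Orc4, another subunit of the complex, rose by a fitted 0.77 at 12 h (limma adjusted p = 0.00088) at its brightest probe set. This probe set read 9.10, 9.07, 8.95 and 8.94 in vehicle and 9.19, 9.52 and 9.78 in NaF. A second tested probe set of Orc4 read 8.28, 8.35, 8.19 and 8.19 in vehicle and 8.29, 7.91 and 8.17 in NaF, so the rise was seen at 1 of 2 probe sets, and the second was called lower at 6 h (fitted change -0.34, limma adjusted p = 0.021). Orc6 rose by a fitted 0.29 at 12 h at an adjusted p of 0.048 from limma, a call that did not pass when the 3, 6 or 12 h vehicle array was dropped (range of adjusted p over the alternatives 0.025 to 0.13). Its other tested probe sets changed by 0.08 and 0.39 at 12 h, and the latter was called higher (fitted change 0.43, limma adjusted p = 0.028). At 6 h all 3 tested probe sets of Orc6 were called higher. Their fitted changes were 0.45 at the brightest, 0.53 and 0.47 (limma adjusted p = 0.017, 0.022 and 0.031). Orc5 was called lower at 12 h, with 8.40, 8.45, 8.51 and 8.46 in vehicle and 8.57, 8.23 and 8.16 in NaF. Orc1, whose level is known to vary through the cell cycle, read 7.40, 7.68, 7.50 and 7.55 in vehicle and 7.64, 7.07 and 7.59 in NaF, a dip at 6 h alone (fitted change -0.47, limma adjusted p = 0.020). Orc3 and Cdt1, the loader of the Mcm ring, did not pass the test at any time, with changes of 0.04 and 0.01 at 12 h.

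Gmnn, which encodes the inhibitor of Cdt1, was the earliest steady fall of this group. Its log2 signals were 9.62, 9.62, 9.60 and 9.66 in vehicle and 9.30, 8.66 and 8.52 in NaF. The vehicle signals of Gmnn hardly varied (SD 0.022 over the 4 arrays), and every NaF signal lay below them. The fitted change was -0.33 at 3 h, -0.96 at 6 h and -1.11 at 12 h (standard error 0.06, limma adjusted p = 0.027, 0.00045 and 0.00016), and 45.5% of the 12 h vehicle signal was left. A dim probe set of Gmnn that was not tested, at 3.56 to 4.43 over the 7 arrays, differed by -0.16 at 12 h.

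Most helicase genes fell. Of 11 tested genes, 8 fell at 6 h and 10 at 12 h, beside 22.2% and 31.7% of all tested probe sets. Their median change was -0.34 at 6 h and -0.74 at 12 h. All 6 subunits of the Mcm2-7 ring fell at both times. Mcm5 read 9.53, 9.68, 9.52 and 9.55 in vehicle and 9.38, 9.04 and 8.53 in NaF, and Mcm2 read 9.94, 10.03, 9.88 and 9.94 in vehicle and 9.75, 9.41 and 9.04 in NaF. For both subunits each NaF signal lay below every vehicle signal, and the fitted change at 12 h was -1.04 for Mcm5 (limma adjusted p = 0.00031) and -0.91 for Mcm2 (limma adjusted p = 0.00035). The other subunits changed by -0.98 (Mcm3), -0.83 (Mcm4), -0.74 (Mcm6) and -0.34 (Mcm7) at 12 h. Mcm7 was the shallowest of the 6. It was also the 1 subunit without a further fall from 6 to 12 h, with signals of 10.90 and 10.95, and its 12 h call did not pass when the 12 h vehicle array was dropped (fitted change -0.30, limma adjusted p = 0.023 with all arrays, 0.0088 to 0.073 over the alternatives).

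The GINS complex, which joins Cdc45 and the Mcm ring in the active helicase, moved in both directions. Gins1 had the largest fall of all 45 genes, with 7.77, 7.88, 7.98 and 7.94 in vehicle and 7.77, 7.44 and 6.32 in NaF. At 3 h its NaF signal was level with the lowest vehicle signal, and at 12 h 32.5% of the same-time vehicle signal was left (fitted change -1.57, standard error 0.09, limma adjusted p = 0.00018). Gins4 changed by -0.65 at 12 h and was called lower. Gins3 went the other way, with 7.24, 7.48, 7.40 and 7.33 in vehicle and 7.30, 7.40 and 7.95 in NaF. Its first 2 NaF signals were within the vehicle range and the 12 h signal was above it (fitted change 0.59, standard error 0.10, limma adjusted p = 0.0033), so Gins3 was the 1 helicase gene that rose. Cdc45 read 8.89, 9.06, 9.00 and 9.08 in vehicle and 9.25, 9.02 and 8.49 in NaF, above every vehicle signal at 3 h and below them at 12 h alone. All 3 tested probe sets of Cdc45 were above their vehicle signals at 3 h, and none was called then. Mcm10, which helps to start the helicase, changed by -0.31 at 12 h and was called lower.

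The DNA just before the annotated starts was searched for the E2F-type letters TTTCCCGC, TTTCGCGC, TTTGCCGC and TTTGGCGC on both strands. RefSeq promoters of the build GRCr8 matched 44 of the 51 genes, and the 250 bases before the start were read. At least 1 match was found in 10 of the 44 (22.7%) and in 1.81% of 27456 promoters of all genes. The 10 were Orc3, Orc5, Mcm2, Mcm5, Mcm6, Mcm7, Gins1, Gins3, Pola1 and Tyms, 6 of them helicase genes. Matches were present in 7 of 28 genes that fell at 12 h (25%) and in 2 of 12 tested genes that did not (16.7%), too few for a comparison. The letters CCAAT, the core of the NF-Y site, were found in 22 of the 44 (50%) and in 34.3% of all promoters. The letters TTTGAA of the cell cycle homology region were found in 4 of the 44 (9.09%) and in 16% of all promoters. The windows of 5 genes are shown, those of the 2 Mcm subunits given above, of Gins1 with the largest fall, and of Gins3 and Orc2, which rose. Capitals mark E2F-type matches on either strand, and adjacent matches on opposite strands overlap and form 1 run.
Gins1, chr3:160184670-160184919, plus strand: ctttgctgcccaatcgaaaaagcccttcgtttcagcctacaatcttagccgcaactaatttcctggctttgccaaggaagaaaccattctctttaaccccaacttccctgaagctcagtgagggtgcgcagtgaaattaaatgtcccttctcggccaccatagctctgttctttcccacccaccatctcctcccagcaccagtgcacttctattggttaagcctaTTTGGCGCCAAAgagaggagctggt
Mcm2, chr4:122918095-122918344, minus strand: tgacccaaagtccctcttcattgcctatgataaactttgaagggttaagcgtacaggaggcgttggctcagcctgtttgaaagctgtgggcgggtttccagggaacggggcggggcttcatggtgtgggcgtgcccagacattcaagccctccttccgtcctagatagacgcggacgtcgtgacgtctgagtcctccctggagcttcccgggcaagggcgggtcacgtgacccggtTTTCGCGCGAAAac
Mcm5, chr19:13488563-13488812, plus strand: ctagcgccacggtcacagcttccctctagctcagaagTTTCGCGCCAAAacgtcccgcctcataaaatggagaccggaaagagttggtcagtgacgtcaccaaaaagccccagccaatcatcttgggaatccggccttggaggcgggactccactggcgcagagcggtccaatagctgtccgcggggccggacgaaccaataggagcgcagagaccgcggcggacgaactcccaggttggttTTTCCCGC
Gins3, chr19:9434680-9434929, minus strand: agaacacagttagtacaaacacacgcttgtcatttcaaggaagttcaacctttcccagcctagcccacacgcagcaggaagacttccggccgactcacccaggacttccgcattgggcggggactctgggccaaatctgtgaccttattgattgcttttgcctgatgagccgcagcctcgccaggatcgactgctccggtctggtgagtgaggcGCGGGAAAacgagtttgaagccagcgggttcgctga
Orc2, chr9:67526650-67526899, minus strand: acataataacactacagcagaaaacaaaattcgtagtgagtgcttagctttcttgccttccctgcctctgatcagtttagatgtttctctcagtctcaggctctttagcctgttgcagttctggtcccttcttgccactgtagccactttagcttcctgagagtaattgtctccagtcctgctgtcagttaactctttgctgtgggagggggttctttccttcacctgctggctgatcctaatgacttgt
Gins1 and Gins3, which moved in opposite directions, both held a match near the start, at most 36 bases from it, and the window of Orc2 held none. A match of letters is a description of the sequence and does not show that a factor binds there.

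**Figure D3:**
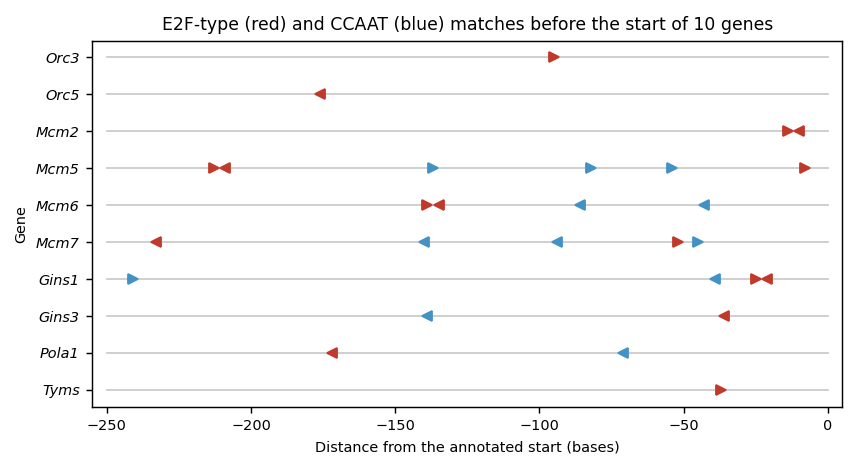
Positions of E2F-type matches (red) and CCAAT matches (blue) in the 250 bases before the annotated start for the 10 genes with an E2F-type match; the x axis is the distance from the start in bases, and triangles point right for the plus and left for the minus strand of the gene. Pairs of overlapping red triangles on opposite strands are seen in Mcm2, Mcm5, Mcm6 and Gins1.

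Polymerase and primase genes were called lower mainly at 12 h. Of 8 tested genes, 2 fell at 6 h and 5 at 12 h, beside 22.2% and 31.7% of all tested probe sets. The 6 h count was near that share. None rose at either time (0 also at an unadjusted p under 0.05 by limma), beside 16.7% and 28.9% called higher. The median change moved from 0.03 at 6 h to -0.48 at 12 h. Pole2, an accessory subunit of DNA polymerase epsilon, read 7.70, 8.09, 8.01 and 7.88 in vehicle and 7.82, 7.33 and 6.51 in NaF. Its 6 h and 12 h signals were below the vehicle range, and 38.6% of the vehicle signal remained at 12 h (fitted change -1.41, standard error 0.15, limma adjusted p = 0.00068). Pola2, the regulatory subunit of DNA polymerase alpha, read 7.54, 7.74, 7.74 and 7.79 in vehicle and 7.60, 7.15 and 6.92 in NaF, with the same order in time (fitted change -0.78 at 12 h, limma adjusted p = 0.0017). The catalytic subunits Pola1, Pold1 and Pole changed by -0.55, -0.42 and -0.56 at 12 h and by 0.06, 0.02 and 0.11 at 6 h, and all 3 were called lower at 12 h alone. Pold1 did not pass when the 6 h vehicle array was dropped. Primase genes Prim1 (-0.05 at 12 h) and Prim2 (-0.22) and the polymerase delta subunit Pold2 (-0.12) did not pass the test at any time. Prim2 was called lower at 12 h under 3 of the alternatives, 1 of them with the 0 h vehicle array dropped (limma adjusted p = 0.11 with all arrays, 0.023 to 0.24 over the alternatives).

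**Figure D4:**
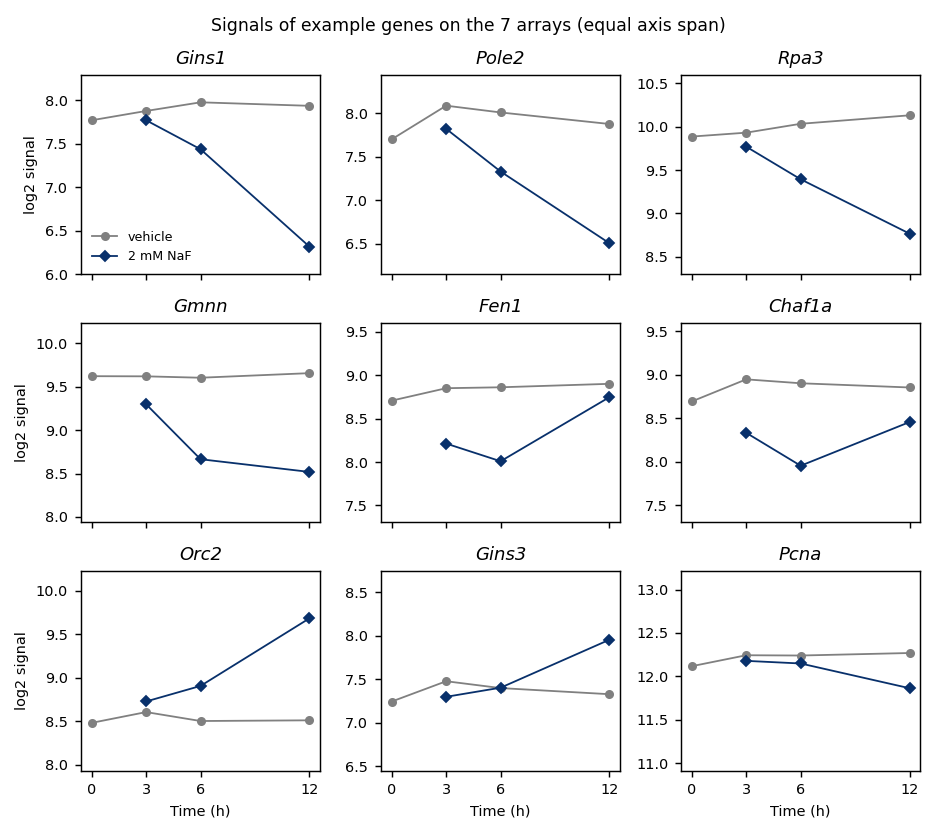
Log2 signals of 9 genes on the 7 arrays against time (h), vehicle in grey and 2 mM NaF in blue, 1 array a point, with the same span on every y axis. Gins1, Pole2 and Rpa3 step down to 12 h, Gmnn drops by 6 h, Fen1 and Chaf1a dip at 3 and 6 h and are higher again at 12 h, and Orc2 and Gins3 climb.

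Of 11 tested genes of the clamp, the clamp loader, single-strand binding and Okazaki fragments, 7 fell and 1 rose at 12 h. Of all tested probe sets, 31.7% were called lower and 28.9% higher then. At 6 h 3 fell and 2 rose, near the 22.2% and 16.7% of all tested probe sets. Pcna, the clamp itself, read 12.12, 12.24, 12.24 and 12.27 in vehicle and 12.18, 12.15 and 11.86 in NaF, below the vehicle range at 12 h alone and by less than the median of the list (-0.41, 75.5% of vehicle). Rfc3, a subunit of the clamp loader, read 8.76, 9.05, 9.12 and 9.24 in vehicle and 8.85, 8.59 and 8.12 in NaF. Its vehicle signal climbed by 0.48 from 0 to 12 h, so the change of -1.12 against the 12 h vehicle exceeds the fitted change of -0.92 (standard error 0.17, limma adjusted p = 0.0056). The loader subunits did not move as 1 block: Rfc4 fell (-0.47), Rfc1 fell at its brightest probe set (-0.29), and Rfc5 rose. Rfc5 read 10.47, 10.43, 10.34 and 10.46 in vehicle and 10.65, 10.74 and 10.68 in NaF, a small rise that passed the test at 6 and 12 h (fitted change 0.25 at 12 h, limma adjusted p = 0.025). The second tested probe set of Rfc5, of similar brightness, was called higher at 6 h but not at 12 h, when it changed by 0.03 (limma adjusted p = 0.36), and the 12 h call did not pass with both averaged or with no signal limit (0.012 to 0.075 over the alternatives). Rfc2 read 9.57, 9.59, 9.64 and 9.63 in vehicle and 9.51, 9.93 and 9.71 in NaF, a rise called at 6 h only. A dimmer tested probe set of Rfc1 held the same value, 7.99, on all arrays but the 12 h vehicle array, where it was 8.01.

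The 3 subunits of the single-strand binding protein RPA differed in depth. Rpa3, the smallest subunit, read 9.89, 9.93, 10.03 and 10.13 in vehicle and 9.77, 9.39 and 8.77 in NaF. Every NaF signal was below the vehicle range, and 38.9% of the vehicle signal was left at 12 h (fitted change -1.23, standard error 0.10, limma adjusted p = 0.00039). Rpa2 fell to a change of -0.63 at 6 h and stood at -0.48 at 12 h. Rpa1 changed by -0.42 at 12 h and did not pass the test (fitted change -0.28, limma adjusted p = 0.10, range over the alternatives 0.019 to 0.23). It passed when the 0 h vehicle array was dropped. Lig1, the ligase that seals Okazaki fragments, read 9.54, 9.82, 9.71 and 9.80 in vehicle and 9.57, 9.58 and 8.80 in NaF, so nearly all of its fall came between 6 and 12 h (fitted change -0.92 at 12 h, limma adjusted p = 0.0013).

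Fen1 and Chaf1a had another course, with an early fall and a return. Fen1, the flap endonuclease of Okazaki fragments, read 8.71, 8.85, 8.86 and 8.90 in vehicle and 8.21, 8.01 and 8.75 in NaF. Its signals at 3 and 6 h were below all vehicle signals, and at 12 h it was back within their range (fitted change -0.62, -0.82 and -0.08, standard error 0.09, limma adjusted p = 0.015, 0.0016 and 0.45). Chaf1a, the large subunit of chromatin assembly factor 1, read 8.69, 8.95, 8.90 and 8.85 in vehicle and 8.33, 7.95 and 8.46 in NaF. All its NaF signals were below the vehicle range and the 6 h signal was the lowest (fitted change -0.52, -0.90 and -0.39, standard error 0.10, limma adjusted p = 0.039, 0.0021 and 0.020). The 12 h value of Chaf1a did not pass when the 6 h or the 12 h vehicle array was dropped. Together with Gmnn these were the 3 genes that fell at 3 h.

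The other genes of chromatin assembly and maintenance methylation were lowest at 12 h. Of the 4 genes of the group, 3 were called lower at 6 h (Chaf1a, Chaf1b and Uhrf1) and all 4 at 12 h. Of all tested probe sets, 22.2% and 31.7% were called lower at these times. Chaf1b, the partner of Chaf1a in the same complex, read 8.16, 8.24, 8.09 and 8.09 in vehicle and 7.97, 7.64 and 6.94 in NaF. It stepped down to 45.1% of vehicle at 12 h, when Chaf1a was at 75.9% (fitted change of Chaf1b -1.21, standard error 0.08, limma adjusted p = 0.00023). Uhrf1, which binds hemimethylated DNA behind the fork, read 9.26, 9.40, 9.34 and 9.23 in vehicle and 9.25, 9.00 and 8.26 in NaF (fitted change -1.04 at 12 h, limma adjusted p = 0.00033). Dnmt1, the maintenance methyltransferase that Uhrf1 recruits, changed by 0.00, -0.20 and -0.50 and was called at 12 h alone.

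Most of the change of the nucleotide supply genes came between 6 and 12 h. Of 3 tested genes, 2 were called lower at 6 h (Rrm1 and Dut) and all 3 at 12 h, beside 22.2% and 31.7% of all tested probe sets. The median change moved from -0.23 at 6 h to -0.98 at 12 h. Tk1, the S-phase thymidine kinase, read 10.17, 10.33, 10.27 and 10.37 in vehicle and 10.25, 10.08 and 9.34 in NaF. Its 3 h signal lay within the vehicle range and the 12 h signal far below (fitted change -0.95, standard error 0.09, limma adjusted p = 0.00049). Of the other tested probe sets of Tk1, 1 changed by -0.98 at 12 h and the dimmest by 0.00, with signals of 7.02 to 7.39 on all arrays. Rrm1, the large subunit of ribonucleotide reductase, read 9.98, 10.11, 10.03 and 10.13 in vehicle and 9.97, 9.80 and 9.15 in NaF (fitted change -0.91 at 12 h, limma adjusted p = 0.00040). Dut, which removes dUTP, changed by -0.29, -0.28 and -0.86. Tyms, thymidylate synthase, was below the signal limit with a mean of 6.54 and was not tested among the 45. It lay between 6.82 and 7.02 in vehicle and between 5.29 and 6.80 in NaF, with a change of -1.59 at 12 h.

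The time courses were compared within NaF by a contrast of the 12 h with the 6 h array, again tested against the spread among vehicle arrays. Of 45 genes, 21 were lower at 12 h than at 6 h and 5 were higher, beside 20% lower and 21.5% higher of all tested probe sets. All 21 were among the genes called lower than vehicle at 12 h. The steepest step was that of Gins1 (-1.12, standard error 0.11, limma adjusted p = 0.0024), followed by Pole2 (-0.83), Lig1 (-0.78), Uhrf1 and Tk1 (both -0.74). Helicase genes gave 8 of the 21. The 5 that were higher were Orc1, Orc2, Gins3, Fen1 and Chaf1a, and 3 were called when the 6 h or the 12 h vehicle array was dropped. By signal alone, 8 of 45 genes were above their 6 h value at 12 h of NaF, beside 49.1% of all tested probe sets. Against vehicle of the same time, the largest of the 3 changes was that of 12 h in 35 of 45 genes and in 59.8% of all tested probe sets.

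**Figure D5:**
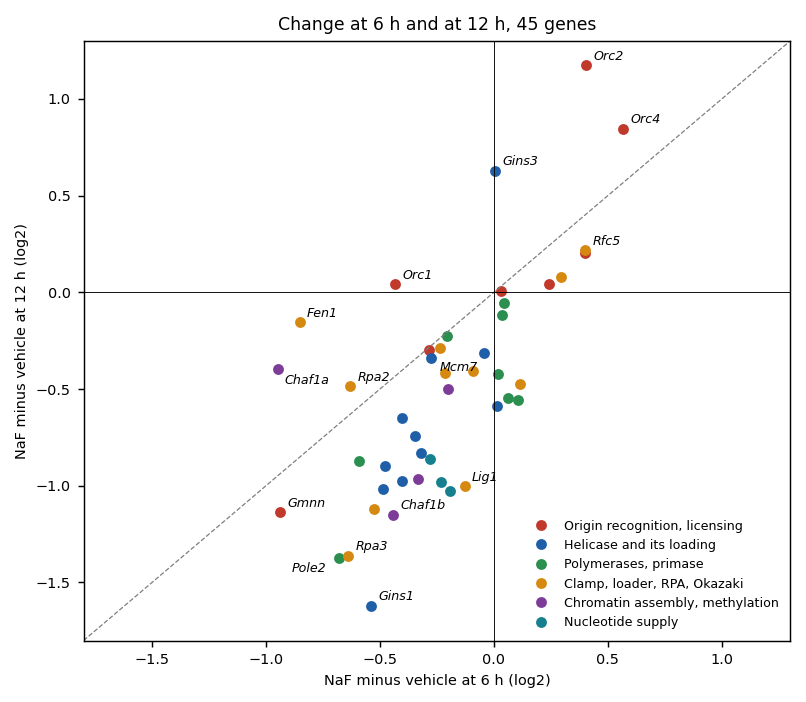
Log2 change at 12 h (y axis) against that at 6 h (x axis), NaF minus vehicle of the same time, for the 45 genes colored by role; the dashed line marks equal change. Most points lie below the line and left of or near 0, while Fen1, Chaf1a, Rpa2 and Orc1 lie above the line on the left and Orc2, Orc4 and Gins3 lie above it with rises at 12 h.

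The fit of the 3 NaF arrays against the 4 vehicle arrays called few genes. It takes the course over time as spread, and 3 of 45 genes were lower (Gmnn, Rpa2 and Chaf1a) and 0 higher by limma (4 at an unadjusted p under 0.05), beside 4.49% and 4.01% of all tested probe sets. The 3 calls were lost when any 1 of the 4 vehicle arrays or the 6 h NaF array was left out. Without the 3 h NaF array, 21 genes were lower and 4 higher, and without that of 12 h 8 were lower and 2 higher.

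Signals of these genes also differed among the vehicle arrays. The 0 h array was the lowest of the 4 vehicle arrays for 31 of 45 genes, beside 42.5% of all tested probe sets, and the 12 h array was above the 0 h array for 37 genes (58.6% of all tested probe sets). The median difference between 12 h and 0 h was 0.11 for the 45 genes and 0.03 for all tested probe sets, with Rfc3 (0.48), Rpa1 (0.33) and Pola2 (0.26) among the wider ones. The median SD of the 45 genes over the vehicle arrays was 0.08, close to that of all tested probe sets (0.08).

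Further lists of related genes, chosen like the 51 with earlier results of these data known, give the surroundings. Of 28 other tested genes of the replisome, fork and chromatin, 16 fell and 2 rose at 12 h, with a median change of -0.43. For this list and the G1/S regulators below, the shares of all tested probe sets at 12 h were 31.7% lower and 28.9% higher. Esco2 (-1.35), a cohesin acetyltransferase of S phase, Pclaf (-1.24), which binds Pcna, Top2a (-1.11) and Wdhd1 (-1.02), which links the helicase to polymerase alpha, changed most. Among 22 tested G1/S regulators, 17 fell and 2 rose at 12 h, with a median of -0.42. E2f8, a repressor among the E2F factors, changed by -0.68, -1.53 and -1.57 at 3, 6 and 12 h, the cyclin genes Ccnd1 and Ccne1 by -1.09 and -0.85 at 12 h, and Rbl1, a retinoblastoma family gene, by -0.78. E2f1, an activating E2F factor, changed by 0.07, 0.00 and -0.60 and was called at 12 h alone.

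Of 28 tested purine, pyrimidine and folate enzymes outside the list, 10 rose and 9 fell at 12 h, counts near the 28.9% and 31.7% of all tested probe sets, with a median change of 0.00. The mitochondrial folate enzymes Mthfd2 (1.52) and Shmt2 (1.01) rose. Dck (-1.11), a kinase of deoxynucleoside salvage, and Ctps2 (-0.84), which makes CTP, fell. Ctps1, which also makes CTP, rose by 0.39. Tk2, the mitochondrial thymidine kinase, rose by 0.80 while Tk1 changed by -1.03. Whether the lists differ from one another was not tested.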

How the data were processed

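RNA pools of 7 conditions (3 independent experiments each) were labeled as cRNA and hybridized to Affymetrix rat genome arrays by the authors, who analyzed the intensities in GeneSpring GX. The deposited values are log2 signals per probe set, already normalized between arrays by a method not given in the sources used here, and were used without further scaling. Precision is limited by there being 1 array a condition. Probe sets were named through the platform annotation of the array, and 436 with several symbols named no gene. The 57 control probe sets were not tested. Groups followed the sample titles.

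limma 3.58.1 in R 4.3.3 (lmFit, eBayes, Benjamini-Hochberg over 10707 probe sets) set each NaF array against the mean vehicle (3 residual and 2.79 prior degrees of freedom), and NaF as a whole with vehicle. A single NaF array is thereby taken to vary as vehicle does. The contrast of 12 h with 6 h of NaF was added after the data were seen. The fits were also run on simulated data, where every array was drawn with the spread of vehicle. Such data cannot check whether NaF arrays vary as vehicle does. The members, lists and signal limit were chosen with earlier results of these data known. Genes given on every array were the 2 with the largest change at 12 h in each role, Pcna, Mcm2 and Uhrf1, and those called against the median of their role, and in other lists up to 4 with the largest change. Orc1, Orc4, Cdc45, Lig1, Fen1 and Chaf1a were described after their values were seen. So were E2f1, Tk2, Ctps1, Dsg2, Tp63, Vim, Fn1, Cd14, Egfl7 and Myh1. Alternatives were other filters, scalings and baselines, a trended prior variance, blocking by time, averaging the probe sets of a gene, a 1.5-fold threshold and leaving out each array.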

Additional observations from a re-analysis of the deposited data

Results flagged for a closer look

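The change with NaF differed between 6 and 12 h for 26 of the 45 genes, by a limma contrast of these 2 NaF arrays tested on the vehicle spread. Of these, 21 were lower at 12 h, which is 46.7% of the genes beside 20% of all tested probe sets. The other 5 were higher at 12 h than at 6 h: Orc2 by 0.78 (standard error 0.09, limma adjusted p = 0.0029), Fen1 by 0.74 (standard error 0.11, limma adjusted p = 0.0052), Gins3 by 0.55 (standard error 0.12, limma adjusted p = 0.017), Orc1 by 0.53 (standard error 0.14, limma adjusted p = 0.027) and Chaf1a by 0.50 (standard error 0.13, limma adjusted p = 0.028). Against vehicle of the same time, the differences between the changes of 12 and 6 h were 0.77, 0.70, 0.62, 0.48 and 0.55 for these genes. Each value rests on 1 array a time. The 5 genes that were higher make 11.1% of the 45, below the 21.5% of all tested probe sets.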

How the results depend on the processing

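Of the 36 genes called at 12 h, 30 were called under every alternative, 27 lower and 3 higher (Orc2, Orc4 and Gins3). The count of 31 lower genes at 12 h stayed between 29 and 33 in all of them, and no called value changed direction. The fitted change of Cdt1 at 12 h, which was not called, was 0.04 with all arrays and -0.00035 when the 0 h vehicle array was dropped. With no signal limit, more probe sets enter the adjustment: 0 genes were then called lower at 3 h, 3 higher and 10 lower at 6 h, 3 higher at 12 h, 2 higher and 11 lower from 6 to 12 h, and 1 lower for all NaF arrays against vehicle. With the probe sets of a gene averaged, 3 genes were higher at 12 h, and the median change was -0.12 for clamp and fork genes at 6 h and -0.86 for nucleotide supply at 12 h. With the mean vehicle as baseline, the chromatin group stood at -0.12 at 3 h. For all NaF arrays against vehicle, blocking by time, which pairs NaF with vehicle at 3, 6 and 12 h, left 0 lower, and a variance trend gave 1 higher. A 1.5-fold threshold was passed by 2, 7 and 19 lower genes at 3, 6 and 12 h and by 3 higher at 12 h. Leaving out 1 array at a time gave 0 to 3 lower at 3 h, 13 to 23 lower at 6 h and 3 to 5 higher from 6 to 12 h. For all NaF arrays against vehicle it gave 0 to 4 higher and 0 to 21 lower, with 21 lower when the 3 h NaF array was dropped. The causes were not tested. The labels carry no replicate numbers, so time was the only pairing tried.

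Pooled RNA on 1 array a condition leaves the spread between experiments unmeasured, for NaF and for vehicle alike. The summarization that the authors used is unknown, and repeated values on several arrays give some probe sets a very small spread. The 5 genes without a probe set of their own, Rrm2 and both kinase genes Cdc7 and Dbf4 among them, have no value.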
